A study of Homo sapiens with 6 samples.

Results

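AU-rich element binding proteins are the trans-acting factors that decide how long many short-lived mRNAs survive. The 8 genes described here are ZFP36, ZFP36L1, ZFP36L2, ELAVL1, KHSRP, HNRNPD, TIA1 and TIAL1. They form a list of named genes and were matched by symbol to 8 of 60676 gene IDs in the count tables. All 8 were among the 15577 genes abundant enough to test. Their transcripts were measured in HEK293A cells, an adherent derivative of a human embryonic kidney line, with 3 libraries from cells given the DMSO vehicle and 3 from cells given 20 nM VT01454, both for 2 h. VT01454 is given by code name only. The series title places it in work on phosphatidylinositol transfer proteins and the Hippo pathway, and the comparison asks which transcripts differ after a short exposure. The labels name no genotype or clone and leave unsaid whether each library had a culture of its own. The p-values below thus describe the scatter among these 6 libraries, which may be technical.

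An AU-rich element is a stretch rich in A and U, often with AUUUA pentamers that may overlap, usually in the 3′ untranslated region (UTR) of an mRNA. ZFP36 (tristetraprolin) and its relatives ZFP36L1 and ZFP36L2 bind UAUUUAU through a pair of CCCH zinc fingers and recruit the CCR4-NOT deadenylase, which shortens the poly(A) tail and starts decay. ELAVL1 (HuR) binds similar U-rich sites and protects the mRNA, KHSRP recruits decay enzymes, HNRNPD (AUF1) exists in several isoforms with differing effects on stability, and TIA1 and TIAL1 (TIAR) repress translation and nucleate stress granules. ZFP36 is an immediate early gene whose own mRNA carries an AU-rich element.

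The elements in the members' own transcripts are shown first, because the ZFP36 family's own mRNAs are potential targets of the proteins they encode. Of the 8 genes, 4 had 1 copy each of the AU-rich nonamer TTATTTATT in the 3′ UTR of the chosen GENCODE 29 transcript, the 3 ZFP36 family genes and ELAVL1. Each line gives 30 bases of the sense strand 5′ to 3′ in DNA letters, with the nonamer in capitals.

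ZFP36, chr19:39409196-39409225 (plus strand): tatgacgactTTATTTATTctaatatgatt

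ZFP36L1, chr14:68788076-68788105 (minus strand): aactgttggaTTATTTATTttagaaattcc

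ZFP36L2, chr2:43223447-43223476 (minus strand): actatttaacTTATTTATTatcttgtgaaa

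ELAVL1, chr19:7961827-7961856 (minus strand): atttatgtatTTATTTATTgaagtgtgaaa

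The nonamer was present in 8.83% of the 12821 tested genes for which a 3′ UTR could be read. The shorter heptamer TATTTAT, which every nonamer contains, occurred 3 times in each of ZFP36, ZFP36L1 and ZFP36L2, 5 times in ELAVL1, 1 time each in TIA1 and TIAL1 and 0 times in KHSRP and HNRNPD, counting overlapping matches on the sense strand. At least 3 heptamers were found in 6.44% of tested genes. ZFP36 packed its 3 into a 3′ UTR of 713 bases, or 4.21 per kb of UTR, a density reached by 0.928% of tested genes. In ZFP36L1 and ZFP36L2, whose 3′ UTRs are 1871 and 1917 bases, the density was 1.603 and 1.56 per kb, reached by 5.30% and 5.58%. TIAL1 stood at 4.39 per kb, but from 1 heptamer in a 3′ UTR of only 228 bases. A match describes these letters in 1 transcript and does not show binding. ELAVL1 holds the nonamer and, as the counts below show, did not pass the test.

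Depth was 19126039 to 28880374 counts per library, so that 1 count was worth 0.0351 to 0.0522 CPM, the count scaled to the library's total and its TMM normalisation factor. All pairs of libraries differed by more than sampling noise, and vehicle library 2 stood furthest from the rest, with a chi-square per degree of freedom of 9.12 to 20.1 against each other library, where pairs of compound libraries gave 2.03 to 2.79. The genes KRT8, KRT18, VIM and NEFL, which HEK293 cells are known to express, stood at 255 to 1032 CPM in all 6 libraries. PAX2 stood at 0.245 to 0.708 CPM, LHX1 at or near 0 and NEFM at 0.140 to 6.58 CPM. The leukocyte genes PTPRC and CD3E had 0 counts in every library. None of the 12 marker genes of HEK293, blood, fibroblast and endothelial cells that could be tested passed, and all 5 squamous markers were too low to test.

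After 2 h with VT01454, transcripts of the ZFP36 family were higher and those of the other 5 genes lay close to their vehicle level. ZFP36 rose 2.44-fold and ZFP36L1 1.22-fold, while ZFP36L2 was 1.22-fold higher without passing. Of the 8 genes 2 rose, 0 fell and 6 did not pass (edgeR's quasi-likelihood test, Benjamini-Hochberg adjusted p under 0.05 over all tested genes), where 1.27% of all tested genes rose and 0.616% fell, 1.89% together. The count of 2 became 3 without vehicle library 2 or 3 and 1 when vehicle library 1 or one of the compound libraries was left out. The groups did not overlap for 3 of the 8 genes, all higher, where 11.3% of tested genes were higher without overlap, 9.84% lower and 21.1% either way. The median log2 fold change was 0.041 over the 8 genes and −0.0073 over all tested genes. In these bulk samples fewer cells of a type and less RNA per cell cannot be told apart.

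ZFP36 (ENSG00000128016, chromosome 19, 39406813 to 39409412 on GRCh38, a gene of 2 exons in the transcript used) was the scarcest of the 8 per length and had the largest fold change of them. It had 55, 53 and 69 counts in vehicle libraries 1 to 3 and 175, 186 and 138 in the compound libraries. On the CPM scale this was 2.59, 2.77 and 2.55 with vehicle against 6.14, 7.47 and 5.64 with the compound. The lowest compound library was thus above the highest vehicle library by more than the spread inside either group. The log2 fold change was 1.28 ± 0.16 (SE, adjusted p = 7.77e-04, edgeR), with a 95% interval of 1.92-fold to 3.10-fold. The call held without any single library (log2 fold change 1.17 to 1.37, adjusted p up to 0.0210).

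ZFP36L1 (ENSG00000185650, chromosome 14, 68787660 to 68796253) encodes a decay-promoting relative of ZFP36. It read 37.3, 37.6 and 38.8 CPM with vehicle and 44.0, 46.8 and 48.2 CPM with the compound. The groups were separate, with a narrow vehicle range. The log2 fold change was 0.29 ± 0.07 with an adjusted p = 0.0490 in edgeR. The call was lost when vehicle library 1 or any of the compound libraries was left out (adjusted p up to 0.296), with the replicate number as a block (adjusted p = 0.0574), with library size alone (adjusted p = 0.0777) and in limma-voom (adjusted p = 0.0624), while the log2 fold change stayed between 0.26 and 0.33 in all of these.

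ZFP36L2 (ENSG00000152518, chromosome 2, 43222402 to 43226609) was the most abundant family member. Its levels were 68.4, 64.9 and 57.7 CPM with vehicle and 77.5, 78.4 and 76.0 CPM with the compound, so the groups did not overlap, and vehicle library 3 was the lowest. The log2 fold change was 0.28 ± 0.07, close to that of ZFP36L1, with an adjusted p = 0.0701 in edgeR. It passed in DESeq2 (adjusted p = 0.0200) and in edgeR without vehicle library 2 (adjusted p = 0.0212) or vehicle library 3 (adjusted p = 0.0264, with the log2 fold change at 0.21). The interval of 1.09-fold to 1.35-fold almost coincides with that of ZFP36L1, 1.10-fold to 1.35-fold.

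**Figure D1:**
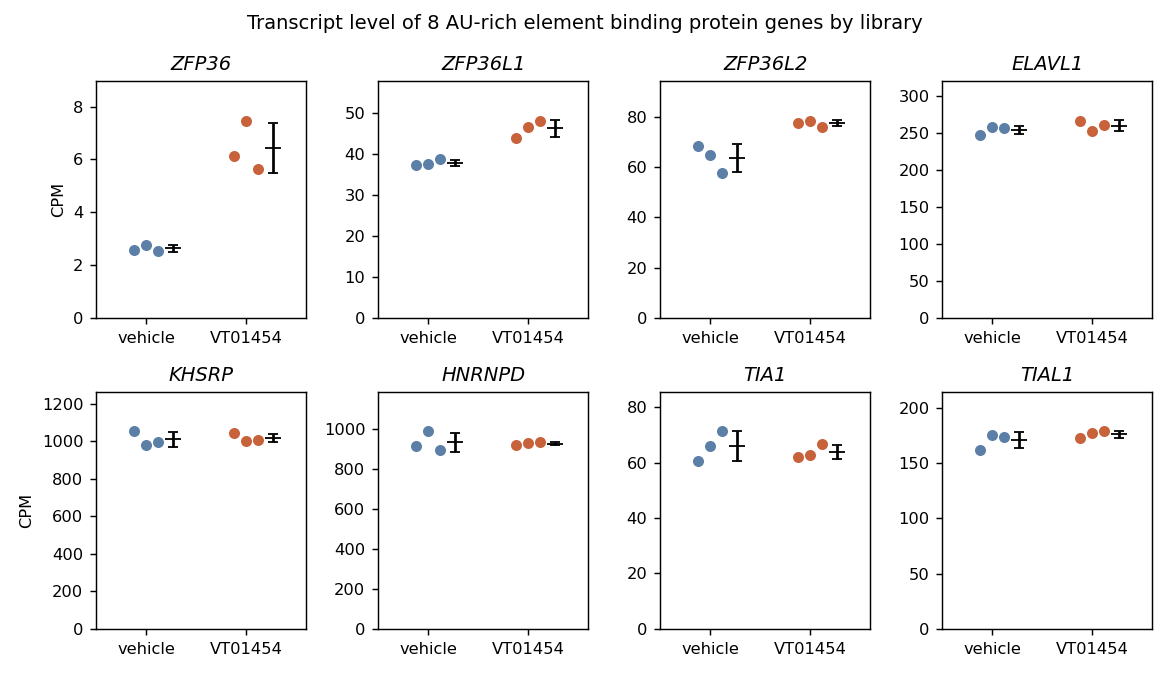
Transcript level in CPM (vertical axes from 0, scaled per gene) of the 8 genes in 3 vehicle libraries (blue) and 3 VT01454 libraries (orange); points are libraries, and the black mark and bars are the mean and SD. ZFP36, ZFP36L1 and ZFP36L2 have separate groups, and the other 5 genes have overlapping ones.

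The stabilising protein gene ELAVL1 (ENSG00000066044, chromosome 19, 7958579 to 8005659) read 248, 258 and 257 CPM with vehicle and 267, 253 and 261 CPM with the compound. Its groups overlapped, and the interval of the difference ran from 0.946-fold to 1.11-fold (log2 fold change 0.034 ± 0.05, adjusted p = 0.800). A rise of the size fitted for ZFP36L1 or ZFP36L2 lies outside that interval.

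KHSRP (ENSG00000088247, chromosome 19, 6413348 to 6424794), which links AU-rich mRNAs to the exosome, read 1053, 979 and 997 CPM with vehicle and 1041, 1003 and 1009 CPM with the compound. HNRNPD (ENSG00000138668, chromosome 4, 82352498 to 82374503) read 913, 986 and 894 CPM with vehicle and 916, 925 and 932 CPM with the compound. These were the most deeply counted members, with 18769 to 29674 counts per library for KHSRP. Their intervals were 0.934-fold to 1.09-fold and 0.917-fold to 1.08-fold. The processed pseudogenes KHSRPP1, HNRNPDP1 and HNRNPDP2 had at most 2 counts in any library, and the antisense HNRNPD-DT at most 5. HNRNPD is counted here as a gene, so a shift between its isoforms would not be seen.

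TIA1 (ENSG00000116001, chromosome 2, 70209444 to 70248660) read 60.6, 66.1 and 71.3 CPM with vehicle and 62.0, 62.8 and 66.6 CPM with the compound, an interval of 0.867-fold to 1.08-fold. Its locus overlaps C2orf42 on the same strand, a gene with 128 to 189 counts per library. TIAL1 (ENSG00000151923, chromosome 10, 119571802 to 119597029) read 162, 175 and 174 CPM with vehicle and 173, 177 and 179 CPM with the compound, an interval of 0.950-fold to 1.12-fold. Both translational repressors had overlapping groups, and neither passed (adjusted p = 0.783 and 0.732 in edgeR).

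**Figure D2:**
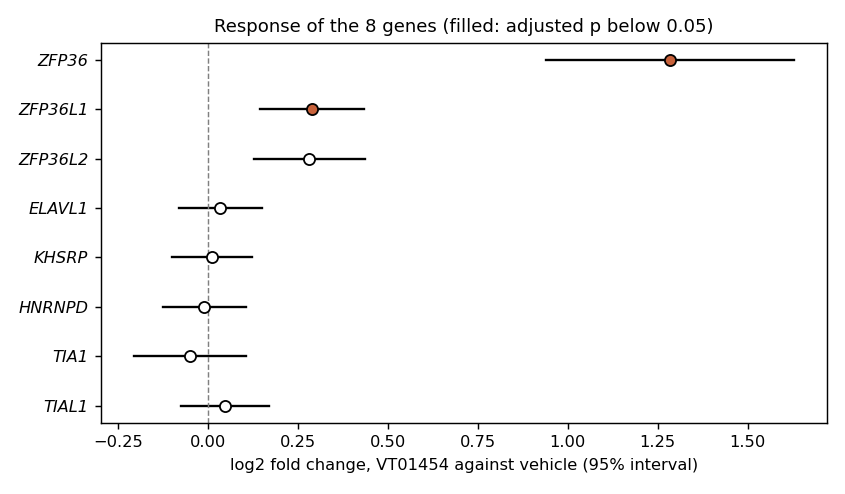
Log2 fold change of VT01454 against vehicle for the 8 genes (points) with 95% intervals from the edgeR fit (lines); filled points passed at an adjusted p below 0.05. ZFP36 lies at 1.28, ZFP36L1 and ZFP36L2 at 0.29 and 0.28, and the intervals of the other 5 span 0.

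To set the genes against each other, CPM was divided by the length of each gene's merged exons in kb. In vehicle libraries the order of mean level was KHSRP (221 ± 8.46 CPM per kb, SD, n = 3), HNRNPD (133 ± 6.98), ELAVL1 (36.6 ± 0.816), TIAL1 (23.2 ± 0.984), ZFP36L2 (17.2 ± 1.48), TIA1 (9.99 ± 0.810), ZFP36L1 (7.34 ± 0.149) and ZFP36 (1.31 ± 0.0573). No 2 neighbours in that order overlapped between libraries, and the order was the same with the compound, where ZFP36 stood at 3.19 ± 0.471 CPM per kb. Over the 6 libraries KHSRP was above 99.2% of tested genes per length and ZFP36 above 39.4%. Merged exons count every annotated isoform, so a gene with long rarely used exons reads low on this scale.

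Within the family, ZFP36 gained on its relatives. The log2 ratio of ZFP36 to ZFP36L1 in CPM was −3.85, −3.76 and −3.93 with vehicle and −2.84, −2.65 and −3.10 with the compound, a difference of 0.99. Against ZFP36L2 the log2 ratio was −4.72, −4.55 and −4.501 with vehicle and −3.66, −3.39 and −3.75 with the compound, a difference of 0.99 as well. In both cases all compound libraries were above all vehicle libraries. Each had an exact two-sided permutation p = 0.1, the smallest that 3 against 3 libraries can give, also after adjustment over the 2 ratios. The difference in response between ZFP36 and its relatives therefore cannot pass a threshold of 0.05 by this test.

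Per length, ZFP36 made up 4.78%, 5.25% and 5.198% of summed family transcripts in the vehicle libraries and 9.39%, 10.9% and 8.58% in the compound libraries. ZFP36L2 held 64.0% to 68.5% with vehicle and 62.4% to 64.4% with the compound, and ZFP36L1 26.8% to 30.8% and 26.2% to 28.6%. The family therefore consisted mostly of ZFP36L2 in both groups. Its summed level was 27.03, 26.2 and 24.4 CPM per kb with vehicle and 32.6, 34.0 and 32.7 with the compound. The mean difference of this sum was 7.22 CPM per kb, within which ZFP36L2 went from a mean of 17.2 to 20.9, ZFP36L1 from 7.34 to 8.98 and ZFP36 from 1.31 to 3.19. ELAVL1 per kb was 1.42 ± 0.0977 times the summed family with vehicle and 1.13 ± 0.0563 times with the compound (SD, n = 3 each), with no overlap between the groups (exact two-sided permutation p = 0.1, the smallest possible). The shares, the sum and this last ratio were chosen after the values were seen.

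**Figure D3:**
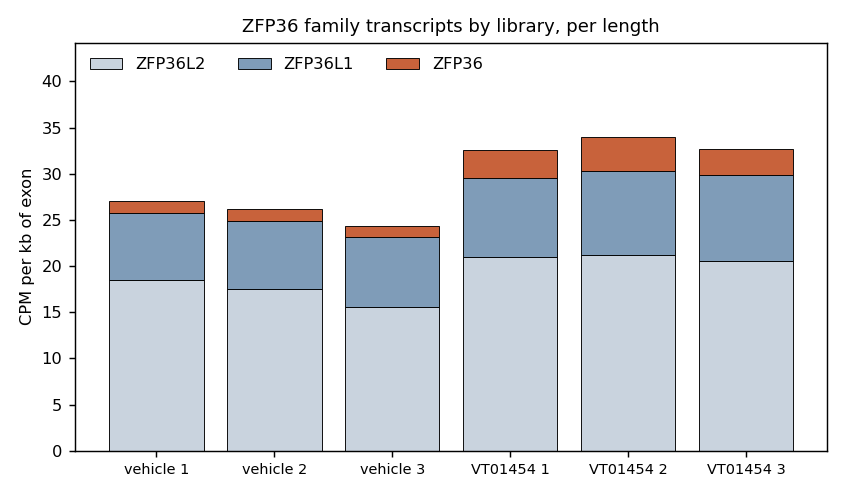
Stacked level of ZFP36L2, ZFP36L1 and ZFP36 in CPM per kb of merged exon (vertical axis from 0) in each of the 6 libraries. The stacks reach 24.4 to 27.03 with vehicle and 32.6 to 34.0 with VT01454, and the ZFP36 segment at the top is the smallest in all of them.

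Among the 9392 tested genes with a mean of at least 10 CPM, the 5 whose 6 log2 values, centred on the vehicle mean, lay nearest those of ZFP36 were CLK1, IER2, SPRY4, JUNB and JUN. The root-mean-square difference from ZFP36 ran from 0.0995 for CLK1, a splicing factor kinase gene, to 0.19 for JUN, an AP-1 subunit gene (log2 scale, 6 libraries). IER2 and JUNB are immediate early genes, and SPRY4 encodes an inhibitor of receptor tyrosine kinase signalling. Their fold changes are given as a description, because the selection itself sets them near that of ZFP36. They were 2.08 for CLK1, 2.14 for IER2, 2.32 for SPRY4, 2.32 for JUNB and 1.90 for JUN. All 5 were below the 2.44 fitted for ZFP36. For the selection 0.5 CPM was added before the log2, which shrinks the change of a scarce transcript such as ZFP36 more than that of these genes.

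Because ZFP36 and ZFP36L1 rose together, the sequence before their start sites is shown. RefSeq on GRCh38.p14 gave an entry for 6 of the 8 genes; ZFP36L2 and ELAVL1 were not among them. The lines below give bases −250 to −41 relative to the annotated start on the gene's strand, with every match to GGAATG, TGACGTCA or GGGCGG on either strand in capitals. ZFP36L1 has 2 annotated starts, and the one with matches is shown.

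ZFP36, chr19:39406597-39406806 (plus strand): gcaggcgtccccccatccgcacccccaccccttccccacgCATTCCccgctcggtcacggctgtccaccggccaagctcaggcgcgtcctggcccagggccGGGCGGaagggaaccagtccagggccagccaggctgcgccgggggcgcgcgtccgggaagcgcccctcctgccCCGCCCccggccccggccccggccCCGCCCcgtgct

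ZFP36L1, chr14:68793457-68793666 (minus strand): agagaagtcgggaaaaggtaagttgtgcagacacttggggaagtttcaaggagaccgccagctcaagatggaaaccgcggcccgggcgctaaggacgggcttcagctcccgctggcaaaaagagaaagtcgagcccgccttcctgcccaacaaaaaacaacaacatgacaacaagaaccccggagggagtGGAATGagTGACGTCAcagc

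The TEAD core GGAATG occurred at −210 in ZFP36 and at −60 in ZFP36L1, and in 11.9% of 35116 promoter windows of 250 bases. The cAMP response element TGACGTCA occurred at −52 in ZFP36L1, and in 1.65% of windows. The SP1 core GGGCGG occurred 3 times in ZFP36, at −149, −76 and −52, and in 42.6% of windows. It was also found in KHSRP (−231 and −170), HNRNPD (−109) and TIA1 (−207 and −86, each from a different annotated start). Those members did not pass. The EGR sites GCGGGGGCG and GCGTGGGCG (4.72% and 0.720% of windows), the AP-1 site TGACTCA (4.203%), the FOXO site GTAAACA (2.98%) and the CArG box of serum response factor (1.16%) had no match on either strand in any window of the 6 genes. These are matches of letters in a short window, and enhancers or introns were not searched.

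In the wider pool of AU-rich and U-rich element binding proteins, 2 of 58 tested genes rose, 0 fell and 56 did not pass, with a median log2 fold change of 0.042. This is 3.45% higher, against 1.27% of all tested genes. Groups did not overlap for 15 of the 58 that were higher and 2 that were lower (25.9% and 3.45%, against 11.3% and 9.84% of all tested genes). MEX3C, an RNA-binding ubiquitin ligase gene, rose from 51.1 to 66.0 CPM (0.37 ± 0.06, adjusted p = 0.00677, edgeR), with vehicle libraries at 50.5 to 52.3 CPM and compound libraries at 64.2 to 67.0 CPM. RC3H1, which encodes the stem-loop binding decay factor Roquin-1, rose from 37.96 to 51.7 CPM (0.44 ± 0.10, adjusted p = 0.0490). Both calls depended on single libraries: MEX3C did not pass (adjusted p as high as 0.0717) if vehicle library 1, compound library 1 or compound library 3 was dropped. RC3H1 did not pass (as high as 0.281) if vehicle library 1 or one of the compound libraries was dropped. Others near the threshold that did not pass were MEX3B at 0.38 ± 0.10, the Pumilio gene PUM2 at 0.29 ± 0.07, and the endonuclease gene ZC3H12C at 0.42 ± 0.12. The count of rises in this pool was 11 without vehicle library 3, 4 without vehicle library 2, 1 without compound library 2, and 0 without vehicle library 1 or compound library 1 or 3.

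Downstream of the ZFP36 proteins stand the deadenylases, decapping enzymes and exonucleases, listed here with their cofactors and the BTG and TOB adaptors. Of 63 such genes tested 4 rose, 1 fell and 58 did not pass (median 0.030). The shares were 6.35% higher and 1.59% lower, against 1.27% and 0.616% of all tested genes. Written from memory with results of these data known, the list gives shares that are not independent evidence. The rises were of BTG2, BTG1 and TOB2, adaptors of the CCR4-NOT deadenylase, by 1.59-fold, 1.32-fold and 1.24-fold, and of the decapping activator gene DCP1A by 1.31-fold. Adaptors thus made up most of the rises, and of the rest of the list only DCP1A rose. The fall was of CNOT3, a CCR4-NOT subunit, from 34.7 to 25.1 CPM (−0.47 ± 0.10, adjusted p = 0.0295 in edgeR). BTG2 passed without any single library, while BTG1, TOB2, DCP1A and CNOT3 did not pass in the fits lacking vehicle library 1 or 1 of the compound libraries (adjusted p up to 0.101, 0.144, 0.167 and 0.193), so that 1 gene was higher and 0 lower in each of those 4 fits. TOB1 stood at 0.25 ± 0.06 (adjusted p = 0.0642). Without vehicle library 3, 11 of these genes were higher and 2 lower, in a fit that called 1170 genes higher and 636 lower in all.

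Upstream, ZFP36 is phosphorylated by the p38-activated kinase MAPKAPK2 and then held by 14-3-3 proteins, and PP2A reverses this. Of 36 genes for these kinases, phosphatases and 14-3-3 proteins 1 rose, 0 fell and 35 did not pass (median 0.0058). A single gene is 2.78% of this list, too few to read against the 1.27% of all tested genes. The rise was of DUSP1, a phosphatase that inactivates p38, from 104 to 142 CPM (0.45 ± 0.07, adjusted p = 0.00363 in edgeR), a call lost without compound library 2 (adjusted p = 0.0523). Next by p were PRKACB at 0.24 ± 0.10, SFN at −0.39 ± 0.19, MAPK12 at −0.18 ± 0.09, MAPK8 at 0.14 ± 0.07 and MAP3K7 at 0.13 ± 0.07, and none of these passed. Without vehicle library 3, 4 genes of this list were higher and 1 lower, and without compound library 2 none was (0 of 36). Transcript counts say nothing of phosphorylation.

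The last list holds mRNAs recalled as reported to carry AU-rich elements, the potential cargo of these proteins. It was written from memory, so a place on it does not document an element. Of 76 tested genes, the ZFP36 family left out, 20 rose, 2 fell and 54 did not pass, with a median log2 fold change of 0.20. The shares were 26.3% higher and 2.63% lower, against 1.27% and 0.616% of all tested genes. The list was drawn up with results of these data known and is rich in immediate early genes, so its direction is not independent evidence. EGR3 rose 28.4-fold, EGR1 10.5-fold, FOS 4.80-fold, EGR2 4.31-fold, FOSB 2.96-fold, NR4A1 2.65-fold, JUNB 2.32-fold and IER2 2.14-fold, all genes of transcriptional regulators. JUN, KLF6, FOSL1 and ATF3 rose 1.49-fold to 1.90-fold. Each of these 12 calls held without any single library. The other rises, named after their values were seen, were mostly less stable. CSRNP1 also kept its call, DUSP1 and RHOB lost it in 1 such fit each, and TGIF1 in 3. MCL1, CDKN1A, KLF10 and NR4A2 lost it in 4 each.

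The 2 that fell, named after their values were seen, were PLK2, a polo-like kinase gene, from 30.3 to 19.9 CPM, and LATS2, a Hippo pathway kinase gene, from 22.3 to 16.3 CPM. In edgeR PLK2 did not pass (adjusted p as high as 0.0715) if compound library 2 or vehicle library 1 was dropped. LATS2 did not pass in those lacking vehicle library 1 or 1 of the compound libraries (adjusted p up to 0.189). Of the 22 changed mRNAs 12 held a heptamer in the chosen transcript, 10 of the 20 that rose and both that fell. That is 54.5% of the changed mRNAs, where 36 of the 54 that did not pass (66.7%) and 34.0% of all tested genes with a 3′ UTR held one. Of the genes that did not pass, 2 are named after their values were seen. CXCL8, a chemokine gene with a well studied AU-rich element, had 3.15 CPM with vehicle and 1.598 CPM with the compound. Its groups overlapped (adjusted p = 0.378 in edgeR). PTGS2 went the other way, from 0.401 CPM with vehicle to 1.17 CPM with the compound, with separate groups (adjusted p = 0.123 in edgeR). The count of 2 lower genes was 0 without vehicle library 1 or compound library 2, 1 without compound library 1 or 3, and 4 without vehicle library 3. DUSP1 stands on this list too.

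**Figure D4:**
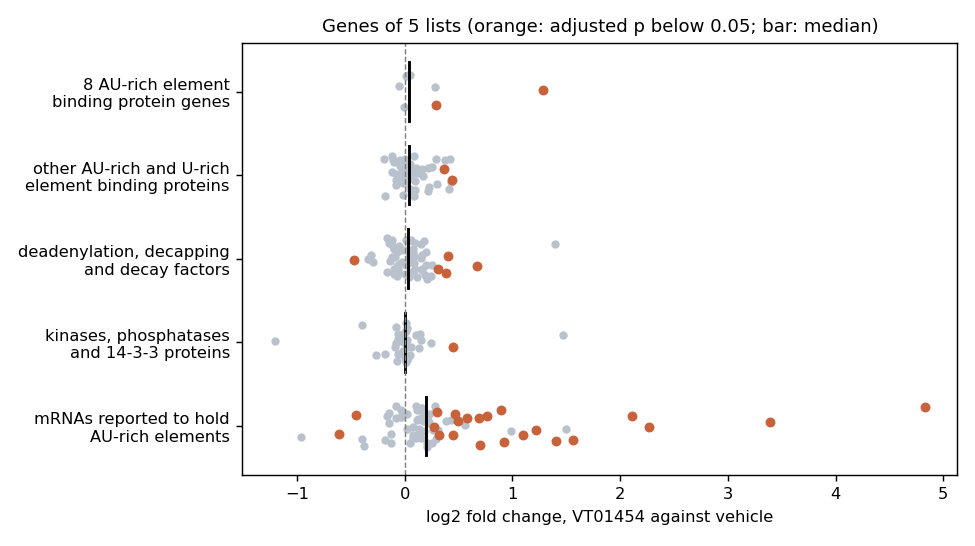
Log2 fold change of VT01454 against vehicle (horizontal axis) for every tested gene of 5 lists; orange points passed at an adjusted p below 0.05, and black bars are list medians. Most called points lie in the lowest row, labelled as mRNAs reported to hold AU-rich elements, a list written from memory, whose median is 0.20.

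The search for the heptamer was extended to all 12821 tested genes with a 3′ UTR, of which 1.53% rose and 0.562% fell. Among 8465 genes without a heptamer 0.874% rose and 0.484% fell, with a median log2 fold change of −0.022. Among 2533 genes with 1 heptamer 2.53% rose and 0.908% fell (median 0.037). With 2 heptamers 3.21% of 997 genes rose and 0.401% fell (median 0.064). With 3 or more 3.15% of 826 rose and 0.484% fell (median 0.091). The ZFP36 family genes belong to this last class, and their log2 fold changes lay above its upper quartile of 0.20. ELAVL1, with 5 heptamers, belongs to it too, and its log2 fold change of 0.034 lay below the class median of 0.091.

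The length of the 3′ UTR moved with the number of heptamers, from a median of 763 bases with none to 4412 bases with 3 or more. Genes were therefore also compared inside 4 equally filled bins of 3′ UTR length. In the shortest bin (up to 469 bases) 0.307% of genes without a heptamer and 2.92% of those with one rose. In the bins that followed the shares were 1.08% against 2.42%, 1.17% against 3.45% and, in the longest bin, 1.40% against 2.53%. The share that fell was 0.273% without against 0.365% with a heptamer in the shortest bin, then 0.360% against 0.996%, 0.970% against 1.04% and, in the longest, 0.466% against 0.469%. The median log2 fold change was higher with a heptamer in all 4 bins, and it also went up with length among genes without one, from −0.050 to 0.030. In the longest bin, genes with a heptamer still had longer 3′ UTRs than those without (median 4145 against 3386 bases). The medians moved with single vehicle libraries: for genes with 3 or more heptamers it was 0.047 without vehicle library 2 and 0.16 without vehicle library 3. For genes with 0, 1 and 2 heptamers it was −0.0010, 0.021 and 0.037 without vehicle library 2, and −0.041, 0.061 and 0.11 without vehicle library 3. In the longest bin the medians without and with a heptamer, 0.030 and 0.072, became 0.0019 and 0.027 without vehicle library 2, and 0.056 and 0.13 without vehicle library 3. For the longer nonamer, 1.44% of 11689 genes without a copy rose, 2.54% of 866 with 1 copy and 2.86% of 175 with 2 copies. In the same order 0.539%, 0.693% and 1.71% fell, and the median log2 fold changes were −0.0030, 0.050 and 0.059. With 2 copies this was 5 genes that rose and 3 that fell. Among the 91 genes with 3 or more copies 1 rose and 0 fell, with a median of −0.011. The rise was of CERT1, a ceramide transfer protein gene (1.39-fold, named after its value was seen). These are descriptions across genes, which are not replicates, and the part of 3′ UTR length in them was not tested further.

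**Figure D5:**
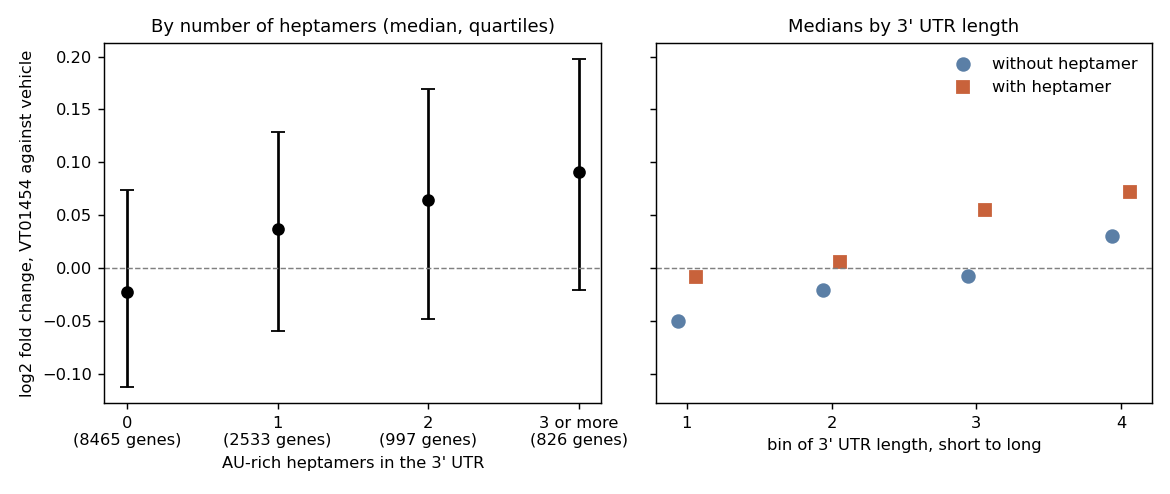
Left, log2 fold change of VT01454 against vehicle by number of TATTTAT heptamers in the 3′ UTR (points are medians over genes, bars the quartiles); right, medians by 4 bins of 3′ UTR length for genes with (squares) and without (circles) a heptamer. Medians go from −0.022 to 0.091 on the left, and squares lie above circles in all 4 bins on the right.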

How the data were processed

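The authors deposited raw read counts per Ensembl gene, 1 table for each of the 6 libraries. HISAT2 2.2.1, HTSeq 0.9.1 and hg38 are named in the submitters' processing notes; the annotation release and the strand setting were not given in the sources used here. Symbols were found for 60357 of 60676 IDs, and 58503 IDs were in GENCODE 29 (GRCh38), the source of coordinates, exon lengths and 3′ UTRs (the best APPRIS transcript, then the longest 3′ UTR). Promoters are RefSeq's, on GRCh38.p14. Genes passing filterByExpr, which held 99.9% of counts in each library, were fitted in edgeR 4.0.16 (R 4.3.3; TMM, robust quasi-likelihood F-test, two-sided, Benjamini-Hochberg). SE was obtained as the log2 fold change over the root of its F statistic, and intervals are 95%. The script was tested on simulated data. Alternatives used DESeq2 1.42.0, limma 3.58.1 (voom), other scalings and filters, a replicate block, and leaving out each library.

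The members and the 4 gene lists were chosen with earlier results of these data known, and the lists were written from memory. Named genes are all members, from each list every gene that passed and then those of smallest p-value until 6 were named (at most 12, by p-value), the 5 genes nearest ZFP36 (pseudocount 0.5 CPM), and pseudogenes of members. Some genes that this rule names are not reported here.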

Additional observations from a re-analysis of the deposited data

How the results depend on the processing

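ZFP36 kept its direction and its call in every alternative run. ZFP36L1 did not pass with library size alone (log2 fold change 0.27), the replicate block (0.29) or limma-voom (0.29), and ranged from 0.26 to 0.33 when 1 library was left out. ZFP36L2 passed in DESeq2 (0.29) and with no count filter (0.30), and ranged from 0.21 to 0.34 with 1 library left out. Of the 6 members that did not pass 3 changed sign: KHSRP stood at −0.012 with library size alone and between −0.0087 and 0.044 without 1 library, HNRNPD at 0.0037 with no count filter and between −0.041 and 0.034, and TIA1 between −0.11 and 0.0087. ELAVL1 and TIAL1 ranged from 0.016 to 0.059 and from 0.014 to 0.069 without 1 library, and were 0.011 and 0.024 with library size alone. The ZFP36 ratios to ZFP36L1 and ZFP36L2 ranged from 0.88 to 1.10 and from 0.89 to 1.07.

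With a library left out, fewer samples entered the fit. Counts of calls went down in some of these fits and up in others, and why was not tested. The counts moved as follows. Members that rose numbered 1 with library size alone, the replicate block, limma-voom or an adjusted p below 0.01, and 1 to 3 without 1 library. Other AU-rich binding proteins that rose numbered 5 in DESeq2, 8 with no count filter, 4 with the replicate block, 1 with library size alone, a mean of at least 1 CPM, limma-voom or an adjusted p below 0.01, and 0 to 11 without 1 library (lower 0 to 1). Decay factors that rose numbered 1 at an adjusted p below 0.01 and 1 to 11 without 1 library; those that fell numbered 2 in DESeq2, with no count filter or with the replicate block, 0 at an adjusted p below 0.01, and 0 to 2 without 1 library. Kinases, phosphatases and 14-3-3 genes gave 0 to 4 higher and 0 to 1 lower without 1 library. Of mRNAs listed as holding AU-rich elements 1 was lower at an adjusted p below 0.01. Without 1 library 14 to 28 of them were higher and 0 to 4 lower. Over all tested genes 198 rose and 96 fell, against 508 and 205 with no count filter, 94 and 31 at an adjusted p below 0.01, and 73 to 1170 and 20 to 636 without 1 library, the largest counts without vehicle library 3. The replicate numbers did not pair the libraries (correlation of deviations −0.072, 0.0011 and 0.0025 for the 3 same-numbered pairs), and 0 of 6 libraries correlated best with the one of its own number. ZFP36 rests on 53 to 186 counts per library, which limits its precision.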

Other observations

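A pair of genes around the AU-rich element pathway differed between single libraries with no regard to group, named here after their values were seen. YWHAE, which encodes 14-3-3 epsilon, a partner of phosphorylated ZFP36, stood at 176 CPM in vehicle library 1 and at 32.9 to 36.1 CPM in the other 5 libraries. SKIC2, the helicase of the SKI complex that feeds mRNAs to the exosome, ran from 0.142 to 3.29 CPM among vehicle libraries and from 0.632 to 6.07 CPM among compound libraries. Neither passed the test (adjusted p = 0.586 and 0.666 in edgeR).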
